A study of Arabidopsis thaliana with 12 samples.

Results

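The 10 genes described here serve iron uptake and the iron-deficiency response of Arabidopsis thaliana: FIT, IRT1, FRO2, FRO3, bHLH38, bHLH39, OPT3, CYP82C4, S8H and F6'H1. They were chosen by name from the 32833 genes of the table, without a threshold on any measured value. Earlier results of these data were known when they were chosen. All 10 had enough counts to be tested among 20506 genes. Their mRNA was measured by RNA sequencing of whole 7-day-old seedlings, in 4 groups of 3 libraries, each library from a separate pool of seedlings. The seedlings grew in liquid MS medium of reduced strength with sucrose. Wild-type plants were of the accession Col-0. The tpst mutant, 1 T-DNA line in that background, is short of tyrosylprotein sulfotransferase, which adds sulfate to phytosulfokine (PSK) and to other secreted peptides. Col-0 and the first tpst group received no PSK, and the other tpst groups were treated for 5 h with synthetic PSK, at 100 nM or at 1 µM. Untreated groups carry a time of 0 in the labels but a water mock in the study's methods, and whether they were collected 5 h later is unknown. No change of iron supply is named for any group, and PSK was not given to Col-0. The comparison of Col-0 with tpst asks which levels differ where tyrosine sulfation is impaired, and the PSK comparisons ask what 1 sulfated peptide changes in 5 h.

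Arabidopsis takes up iron at the root epidermis by reduction: protons and coumarins released by the root bring ferric iron into solution, the reductase FRO2 turns it into ferrous iron, and the transporter IRT1 carries it into the cell. The transcription factor FIT switches on this machinery together with partner proteins of the same basic helix-loop-helix (bHLH) family, among them bHLH38 and bHLH39, whose genes rise when iron is short. OPT3 loads iron into the phloem and is needed for the shoot to report its iron status to the root.

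The stretches of 300 bases upstream of the annotated starts were read from the RefSeq TAIR10.1 assembly, whose coordinates of these 10 genes were those of the deposited table. They are shown for FIT and IRT1, which were far higher in Col-0 than in tpst, and for bHLH38, bHLH39 and OPT3, which were not. Capitals mark each E-box (CANNTG, the letters that bHLH proteins bind), of which the G-box (CACGTG) is 1 form. Both motifs read the same on either strand.
FIT (chr2:12004358-12004657, plus strand): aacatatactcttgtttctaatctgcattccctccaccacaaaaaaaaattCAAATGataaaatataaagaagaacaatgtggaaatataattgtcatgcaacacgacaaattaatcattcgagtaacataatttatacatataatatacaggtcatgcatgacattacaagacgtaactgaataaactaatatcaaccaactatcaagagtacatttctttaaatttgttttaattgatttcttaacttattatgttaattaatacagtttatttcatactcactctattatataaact
IRT1 (chr4:10707044-10707343, plus strand): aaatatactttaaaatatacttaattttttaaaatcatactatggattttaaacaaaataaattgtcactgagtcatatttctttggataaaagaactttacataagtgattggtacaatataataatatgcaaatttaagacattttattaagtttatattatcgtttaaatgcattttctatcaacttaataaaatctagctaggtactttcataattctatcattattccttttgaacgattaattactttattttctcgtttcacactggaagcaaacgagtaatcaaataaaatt
bHLH38 (chr3:21085246-21085545, minus strand): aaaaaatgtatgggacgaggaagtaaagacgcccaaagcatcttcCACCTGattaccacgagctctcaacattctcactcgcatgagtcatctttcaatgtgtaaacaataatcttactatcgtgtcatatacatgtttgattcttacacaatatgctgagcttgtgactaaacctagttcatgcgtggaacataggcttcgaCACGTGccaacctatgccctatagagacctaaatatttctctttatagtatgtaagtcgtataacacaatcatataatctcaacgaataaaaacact
bHLH39 (chr3:21087711-21088010, minus strand): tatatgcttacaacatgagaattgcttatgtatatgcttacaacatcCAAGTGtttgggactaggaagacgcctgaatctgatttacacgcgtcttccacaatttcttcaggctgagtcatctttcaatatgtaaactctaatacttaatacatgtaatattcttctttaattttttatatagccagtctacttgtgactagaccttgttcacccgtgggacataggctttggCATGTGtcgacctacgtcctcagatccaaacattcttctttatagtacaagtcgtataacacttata
OPT3 (chr4:9250344-9250643, minus strand): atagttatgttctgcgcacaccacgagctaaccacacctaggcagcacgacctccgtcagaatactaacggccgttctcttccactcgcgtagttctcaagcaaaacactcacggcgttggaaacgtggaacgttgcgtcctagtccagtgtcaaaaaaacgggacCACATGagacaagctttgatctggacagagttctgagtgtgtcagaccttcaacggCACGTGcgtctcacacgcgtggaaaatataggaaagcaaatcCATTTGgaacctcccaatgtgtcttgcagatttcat

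A G-box was in 7.08% of the 27419 protein-coding promoters of the same length and an E-box in 61.9%. Among the 10 genes a G-box was in bHLH38, 97 bases before the start, and in OPT3, 78 bases before it. FIT had 1 E-box, 249 bases before the start, and bHLH39 had CATGTG 67 bases before it. S8H had 1 E-box and F6'H1 had 3, none of them a G-box. IRT1, FRO2, FRO3 and CYP82C4 had neither motif in this window, which says only that the letters are not there.

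Total counts per library ran from 17066292 to 24948416. TPST itself, the mutated gene, had 17.1 ± 0.183 CPM in Col-0 and 7.48 ± 0.731 CPM in untreated tpst (mean and SD, n = 3), lower in every tpst library than in every Col-0 library. CPM here is a gene's counts scaled to library size, with TMM factors. Within groups, pairs of libraries differed by 2.87 to 4.83 in chi-square per degree of freedom, except that Col-0 replicate 3 differed from the other Col-0 libraries by 14.6 and 16.0. Root markers moved with genotype. The summed level of 10 root epidermis markers was 95.8 to 103 CPM in Col-0, 42.1 to 57.3 CPM in untreated tpst, 57.4 to 63.8 CPM at 100 nM PSK and 53.4 to 60.6 CPM at 1 µM PSK. Relative to untreated tpst, the epidermis sum was higher in Col-0 by 0.98 on the log2 scale, the sum of 11 other root markers by 0.69 (89.5% of it PYK10, and 1.09 without PYK10), and the sum of 7 shoot photosynthesis markers was lower (log2 -0.33). No marker was at 0. In Col-0 9 of 10 epidermis markers and 9 of 11 other root markers were called higher. NRT2.1 was called lower (log2 -1.29), as were 7 of 7 shoot markers. Calls are defined below, and 27.9% of all genes tested were called in this comparison. At each PSK dose 5 of the 11 other root markers were called against untreated tpst, 2 higher and 3 lower. Their log2 changes ran from -2.38 to 1.73 at 100 nM and from -2.19 to 1.83 at 1 µM. Of the 10 epidermis markers, 0 were called at 100 nM and 1 was called higher at 1 µM. Of the 7 shoot markers, 0 were called at 100 nM and 2 were called higher at 1 µM. Of all genes tested, 3.20% and 6.45% were called at these doses.

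Of the 10 iron genes, 6 were higher in Col-0 than in untreated tpst, 1 was lower and 3 were not called. The 6 were FIT, IRT1, FRO2, CYP82C4, S8H and F6'H1, by 2.60-fold to 7.36-fold, and the 1 lower in Col-0 was OPT3. FRO3, bHLH38 and bHLH39 did not pass the test. A call is an adjusted p under 0.05 in edgeR's quasi-likelihood test with Benjamini-Hochberg adjustment over all genes tested, and 27.9% of all genes tested were called in this comparison, 14.6% higher and 13.3% lower in Col-0. With library totals in place of TMM factors the balance was another one, with 4526 genes higher and 1474 lower where TMM gave 2999 and 2732, and the 10 genes still gave 6 higher and 1 lower. Changes of at least 2-fold toward Col-0 were called for 5.44% of all genes tested, and all 6 genes were among them. The median log2 change of the 10 genes was 1.76, against -0.00 for all genes tested. Because the 10 genes were chosen with earlier results of these data known, setting them beside all genes is a description and not a test. The libraries of Col-0 and untreated tpst did not overlap for the same 7 genes, as they did not for 39.8% of all genes tested. Root markers were higher in Col-0 too, and their part in these differences was not tested. In whole seedlings, fewer cells of a type and less RNA per cell cannot be told apart.

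**Figure D1:**
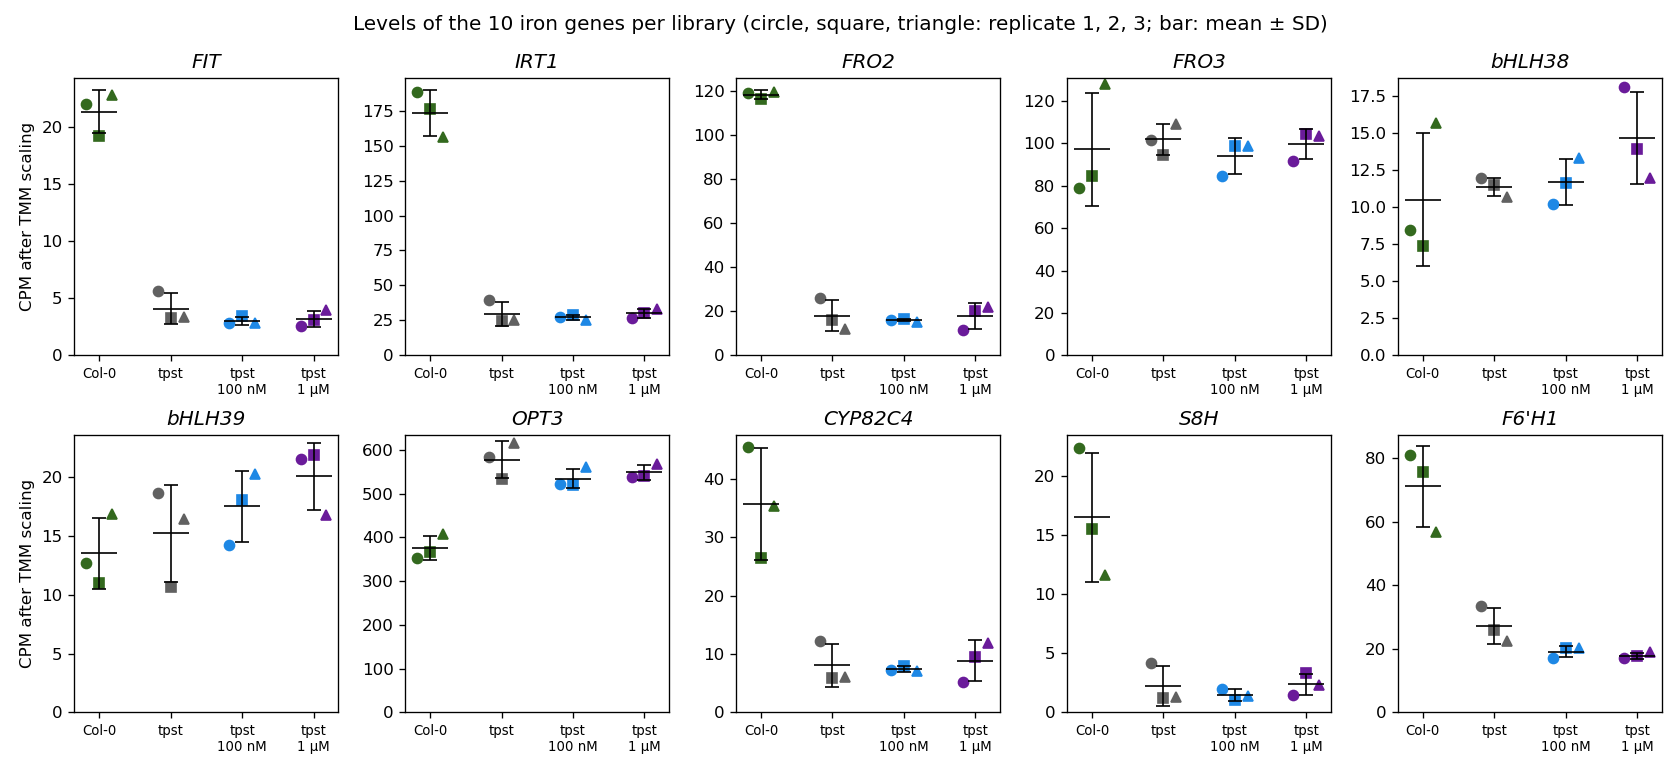
Level of each of the 10 iron genes in every library, in CPM after TMM scaling on a linear axis that starts at 0; circles, squares and triangles are replicates 1, 2 and 3, the long bar is the mean and the whiskers are 1 SD. For FIT, IRT1, FRO2, CYP82C4, S8H and F6'H1 the 3 Col-0 libraries lie above all 9 tpst libraries, for OPT3 they lie below them, and for FRO3, bHLH38 and bHLH39 they overlap.

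FIT (AT2G28160, TAIR10 chr2:12004658-12006276, plus strand), the bHLH factor that the root needs for the uptake response, had 22.0, 19.2 and 22.8 CPM in Col-0 against 5.64, 3.27 and 3.39 CPM in untreated tpst. With PSK it had 2.85, 3.42 and 2.82 CPM at 100 nM and 2.61, 3.07 and 3.97 CPM at 1 µM. Every Col-0 library was above every tpst library, and tpst replicate 1 was the highest of the tpst libraries. FIT was 5.20-fold higher in Col-0 than in untreated tpst (log2 2.38, SE 0.173, edgeR adjusted p = 8.34e-11).

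Its partner genes bHLH38 and bHLH39 did not follow it. bHLH38 (AT3G56970, chr3:21084035-21085245, minus strand) had 8.46, 7.38 and 15.6 CPM in Col-0 and 11.9, 11.5 and 10.7 CPM in untreated tpst. Its level was 10.2, 11.6 and 13.3 CPM at 100 nM PSK and 18.1, 13.9 and 12 CPM at 1 µM PSK. Col-0 replicate 3 was above all untreated tpst libraries and the other Col-0 libraries were below them. The difference was not called (log2 -0.10, SE 0.264, edgeR adjusted p = 0.821). Without Col-0 replicate 3 bHLH38 was called lower in Col-0 (log2 -0.52, edgeR adjusted p = 0.00660, range over all settings 0.00660 to 1.00).

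bHLH39 (AT3G56980, chr3:21086390-21087710, minus strand) had 12.7, 11 and 16.9 CPM in Col-0 and 18.7, 10.6 and 16.4 CPM in untreated tpst. With PSK its level was 14.3, 18.1 and 20.3 CPM at 100 nM and 21.6, 21.9 and 16.8 CPM at 1 µM. The groups overlapped, and Col-0 was not called different from untreated tpst (log2 -0.16, SE 0.235, edgeR adjusted p = 0.674). The bHLH38 and bHLH39 genes lie 1144 bases apart on the same strand. Their transcripts are 83.6% identical over the aligned bases, with a longest shared run of 34 bases, well under the 150-base reads. bHLH38 shares 386 bases with AT3G56960 on the other strand, and the strand setting of the counting is not stated. AT3G56960 was not called different between Col-0 and tpst (log2 -0.16, edgeR adjusted p = 0.433).

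IRT1 (AT4G19690, chr4:10707344-10709015, plus strand), the ferrous iron transporter of the root epidermis, had 188, 176 and 156 CPM in Col-0 and 39.7, 24.4 and 25.5 CPM in untreated tpst. Its level was 27.1, 28.9 and 25.7 CPM at 100 nM PSK and 26.9, 30.3 and 33.2 CPM at 1 µM PSK. As for FIT, the Col-0 libraries were far above all others and tpst replicate 1 was the highest tpst library. The difference between Col-0 and untreated tpst was 5.81-fold (log2 2.54, SE 0.175, edgeR adjusted p = 5.54e-06).

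FRO2 (AT1G01580, chr1:208995-213082, plus strand), the ferric chelate reductase of the root surface, had 119, 116 and 119.6 CPM in Col-0 and 25.9, 16.1 and 12.1 CPM in untreated tpst. At 100 nM PSK it had 16.2, 16.3 and 15.3 CPM, and at 1 µM PSK 11.4, 20.3 and 22.0 CPM. The Col-0 libraries were close to each other and the tpst libraries were spread more widely around a low level. FRO2 was 6.54-fold higher in Col-0 than in untreated tpst (log2 2.71, SE 0.276, edgeR adjusted p = 0.000107).

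The enzymes that make and modify coumarins formed the third set of genes that were higher in Col-0. F6'H1 (AT3G13610, chr3:4449259-4450811, plus strand), which opens the branch toward scopoletin, had 81.0, 75.5 and 56.7 CPM in Col-0 and 33.4, 25.9 and 22.4 CPM in untreated tpst. At 100 nM PSK it had 17.2, 20.2 and 20.2 CPM, and at 1 µM PSK 17, 17.6 and 18.9 CPM. Each PSK library was thus below each untreated tpst library, which in turn were below Col-0. Col-0 was 2.60-fold above untreated tpst (log2 1.38, SE 0.154, edgeR adjusted p = 3.92e-05). F6'H1 shares 67 bases with AT3G13620 on the other strand, whose log2 change was 0.01 (edgeR adjusted p = 0.976).

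S8H (AT3G12900, chr3:4104463-4106341, plus strand) hydroxylates scopoletin to fraxetin. It had 22.4, 15.6 and 11.6 CPM in Col-0 and 4.17, 1.23 and 1.32 CPM in untreated tpst. Its level was 2.02, 1.0 and 1.43 CPM at 100 nM PSK and 1.48, 3.31 and 2.33 CPM at 1 µM PSK. All Col-0 libraries were above all tpst libraries, and tpst replicate 1 stood apart from the other untreated tpst libraries. S8H was 7.36-fold higher in Col-0 than in untreated tpst (log2 2.88, SE 0.473, edgeR adjusted p = 0.00163). Without tpst replicate 1 its log2 change was 3.69 (edgeR adjusted p = 4.81e-06, range over all settings 1.10e-10 to 0.0179).

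CYP82C4 (AT4G31940, chr4:15451988-15454224, plus strand), the cytochrome P450 that turns fraxetin into sideretin, had 45.4, 26.4 and 35.3 CPM in Col-0 and 12.2, 5.85 and 6.02 CPM in untreated tpst. With PSK it had 7.26, 8.00 and 7.07 CPM at 100 nM and 5.17, 9.57 and 11.9 CPM at 1 µM. The lowest Col-0 library was above the highest tpst library. CYP82C4 differed by 4.44-fold in favour of Col-0 (log2 2.15, SE 0.361, edgeR adjusted p = 0.00219). Its neighbour CYP82C2 is 92.1% identical in transcript with a longest shared run of 78 bases, and it had 0.686 ± 0.229 CPM in Col-0 (SD, n = 3).

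OPT3 (AT4G16370, chr4:9247302-9250343, minus strand) went the other way. It had 354, 367 and 408 CPM in Col-0 and 585, 533 and 616 CPM in untreated tpst. At 100 nM PSK it had 523, 520.0 and 560.2 CPM, and at 1 µM PSK 537, 541 and 568 CPM. The 3 Col-0 libraries were below all 9 tpst libraries. OPT3 was 1.54-fold higher in untreated tpst than in Col-0 (log2 of Col-0 over tpst -0.62, SE 0.0568, edgeR adjusted p = 4.00e-09).

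FRO3 (AT1G23020, chr1:8149868-8153796, minus strand), a ferric reductase of mitochondria, had 79.1, 84.9 and 128 CPM in Col-0 and 102, 94.6 and 109 CPM in untreated tpst. Its level was 84.4, 98.9 and 99.0 CPM at 100 nM PSK and 91.7, 104 and 103 CPM at 1 µM PSK. Col-0 replicate 3 was the highest of all 12 libraries and the other Col-0 libraries were below all untreated tpst libraries. The difference between Col-0 and untreated tpst was not called (log2 -0.06, SE 0.172, edgeR adjusted p = 0.832). Without Col-0 replicate 3 FRO3 was called lower in Col-0 (log2 -0.31, edgeR adjusted p = 0.00211, range over all settings 0.00211 to 0.977). Without both Col-0 replicate 3 and tpst replicate 1, a setting chosen after seeing the data, 9 of the 10 genes were called, the added ones being FRO3 and bHLH38. FRO3 shares 24 bases with AT1G23010 on the other strand, which was itself higher in Col-0 (log2 1.46, edgeR adjusted p = 1.04e-06).

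Levels of different genes can be compared in FPKM, which divides by gene length. In Col-0 the mean FPKM was highest for OPT3 (138 ± 10.3, SD, n = 3) and next for IRT1 (109.8 ± 10.2), with no overlap between their libraries. F6'H1 at 47.9 ± 8.55, FRO2 at 41.1 ± 0.655 and FRO3 at 34.6 ± 9.50 FPKM followed, and neighbours among these 3 overlapped. The remaining genes ran from CYP82C4 at 18.8 ± 4.99 FPKM through FIT at 15.3 ± 1.36, S8H at 11.6 ± 3.80 and bHLH39 at 11 ± 2.46 down to bHLH38 at 9.61 ± 4.11 FPKM, and each overlapped the next. The order was another one in untreated tpst. OPT3 led with 213 ± 15.1 FPKM, FRO3 was next with 36.3 ± 2.56 FPKM, and IRT1 (19.0 ± 5.42 FPKM) and F6'H1 (18.4 ± 3.81 FPKM) overlapped below it. bHLH39 (12.5 ± 3.39 FPKM) and bHLH38 (10.4 ± 0.593 FPKM) then stood above FRO2 (6.29 ± 2.48 FPKM), CYP82C4 (4.23 ± 1.92 FPKM), FIT (2.95 ± 0.963 FPKM) and S8H (1.57 ± 1.18 FPKM), and among neighbours in this lower part of the order bHLH38 and FRO2 did not overlap while all others did. FIT was above bHLH39 in mean FPKM in Col-0 and below it in untreated tpst.

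PSK at 100 nM for 5 h changed none of the 10 genes by edgeR's test. The count was 0 of 10 called, where 3.20% of all genes tested were called. At an unadjusted p under 0.05 there were 2 of 10, F6'H1 and FIT, where 12.6% of all genes tested were, and DESeq2 called 1, F6'H1, where it called 3.73% of all genes tested. F6'H1 was at 0.703 of its untreated level (log2 -0.51, SE 0.163, edgeR adjusted p = 0.168). Its libraries did not overlap those of untreated tpst, as was so for 19.8% of all genes tested. Over the alternative settings its adjusted p ran from 0.0101 by DESeq2 to 0.411, and it was called without Col-0 replicate 3 (edgeR adjusted p = 0.0106) and without tpst replicate 3 (0.0460). FIT had a log2 change of -0.44 (SE 0.200, edgeR adjusted p = 0.351) and its libraries overlapped, with tpst replicate 2 and replicate 3 within the range of the PSK libraries.

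At 1 µM PSK for 5 h, 0 of the 10 genes were called by edgeR, where 6.45% of all genes tested were called. At an unadjusted p under 0.05 there was 1 of 10, F6'H1, where 18.9% of all genes tested were, and DESeq2 called 1, again F6'H1, where it called 7.05% of all genes tested. The log2 change of F6'H1 was -0.61 (SE 0.167, edgeR adjusted p = 0.0559, range over all settings 0.000511 to 0.174), and it lay at 0.654 of the untreated level. It was called without Col-0 replicate 1 (edgeR adjusted p = 0.0261), without Col-0 replicate 3 (0.00177) and without tpst replicate 3 (0.0137). bHLH38 had a log2 change of 0.37 (SE 0.263, edgeR adjusted p = 0.522) and bHLH39 one of 0.40 (SE 0.233, edgeR adjusted p = 0.409). The 1 µM libraries did not overlap those of untreated tpst for F6'H1, which was lower, and for bHLH38, which was higher, as was so for 26.6% of all genes tested. IRT1 (log2 0.01, SE 0.184, edgeR adjusted p = 0.983) and FRO2 (log2 -0.02, SE 0.301, edgeR adjusted p = 0.982) had values near those of untreated tpst. The 95% interval of the IRT1 change was -0.41 to 0.43 on the log2 scale. With Col-0 replicate 3 and tpst replicate 1 both left out, IRT1 was called higher at 1 µM PSK (log2 0.27, edgeR adjusted p = 0.0256, range over all settings 0.0256 to 1.00).

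**Figure D2:**
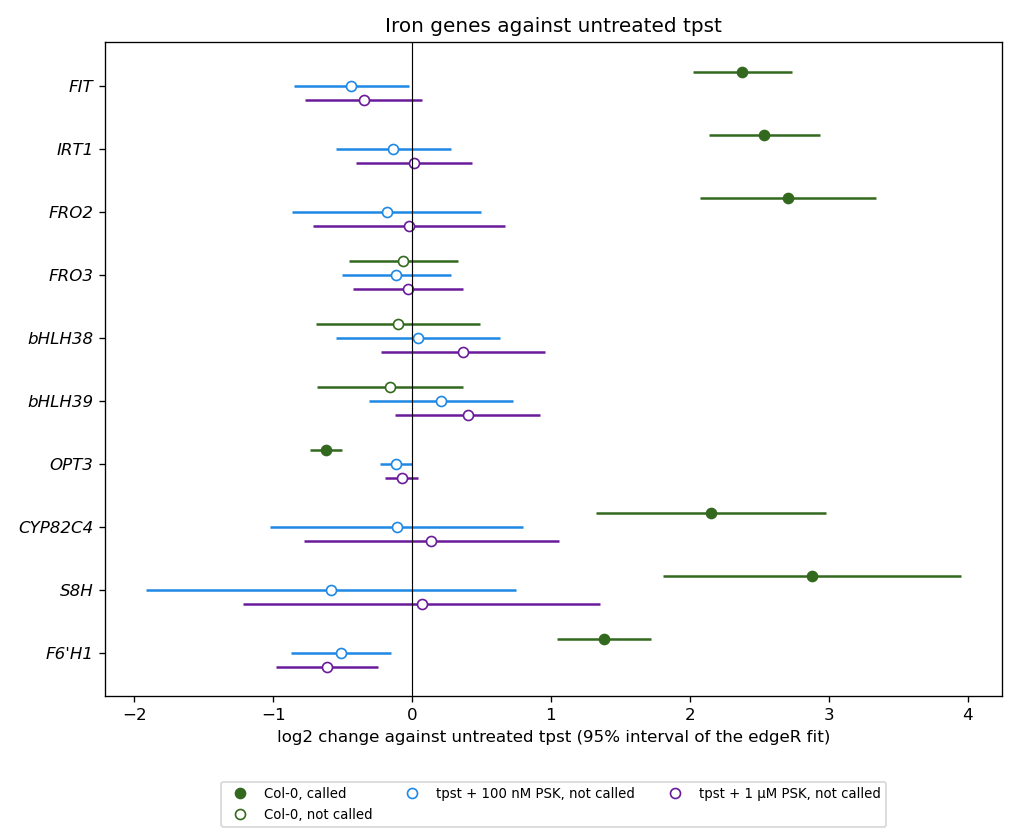
Change of each iron gene against untreated tpst on the log2 axis, for Col-0 and for tpst with 100 nM or 1 µM PSK; points are estimates of the edgeR fit, lines their 95% intervals, and filled points are called at an adjusted p under 0.05. The Col-0 points of 6 genes lie between 1.38 and 2.88, that of OPT3 lies at -0.62, and every PSK point is open.

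The doses were set against each other as well. Between 1 µM and 100 nM PSK, edgeR called 0 of the 10 genes, where 0.239% of all genes tested were called. None was at an unadjusted p under 0.05 (10.2% of all genes tested were), DESeq2 called 0 (0.722% of all genes tested), and none had libraries that did not overlap, which 18.2% of all genes tested had. The log2 differences of 1 µM over 100 nM ran from -0.11 for F6'H1 to 0.65 for S8H, and the 95% interval of S8H was -0.71 to 2.01. Differences in CYP82C4 (log2 0.25, interval -0.67 to 1.17) and FRO2 (log2 0.16, interval -0.54 to 0.86) were also loosely bounded, whereas that of OPT3 (log2 0.04) had an interval of -0.08 to 0.15.

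With PSK the genes stayed apart from Col-0. Against 100 nM PSK, 6 were called higher and 1 lower in Col-0 of the 10 (of all genes tested 29.7% were called, 15.6% higher and 14.1% lower). Against 1 µM PSK it was again 6 higher and 1 lower (34.8% of all genes tested, 17.9% higher and 16.9% lower). The 6 and the 1 were those named for untreated tpst, and these comparisons share the Col-0 libraries. FIT was 7.05-fold higher in Col-0 than at 100 nM PSK (log2 2.82, SE 0.179, edgeR adjusted p = 4.46e-12) and 6.62-fold higher than at 1 µM PSK (log2 2.73, SE 0.182, edgeR adjusted p = 1.11e-11). F6'H1 had a log2 change of 1.38 against untreated tpst, of 1.89 against 100 nM PSK and of 1.99 against 1 µM PSK. OPT3 was lower in Col-0 by log2 values of -0.62, -0.51 and -0.54 in the same order. Without Col-0 replicate 3, bHLH38 was called lower in Col-0 than at 100 nM (log2 -0.57, edgeR adjusted p = 0.00274) and 1 µM PSK (log2 -0.89, edgeR adjusted p = 6.15e-06). FRO3 was then called lower as well, at log2 values of -0.20 (edgeR adjusted p = 0.0426) and -0.28 (edgeR adjusted p = 0.00417). bHLH39 was called lower in Col-0 than at 1 µM PSK without tpst replicate 2 (log2 -0.56, edgeR adjusted p = 0.0156), with only the 2 groups in the fit (log2 -0.58, edgeR adjusted p = 0.0125) and with Col-0 replicate 3 and tpst replicate 1 both left out (log2 -0.76, edgeR adjusted p = 0.0160), while with all libraries in 1 fit it was not (edgeR adjusted p = 0.0918).

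Within groups, single libraries stood apart in partly different sets of these genes, a description made after seeing the data. A library's deviation here is the log2 of its CPM over the mean CPM of the other 2 libraries of its group. In tpst replicate 1 the deviation was 0.76 for FIT, 0.67 for IRT1, 0.88 for FRO2, 1.05 for CYP82C4, 1.72 for S8H and 0.47 for F6'H1. The same library deviated by -0.00 for FRO3, 0.11 for bHLH38 and 0.03 for OPT3, while bHLH39 was at 0.46. Over 14818 genes, the deviations in tpst replicate 1 ran from a lower 5% point of -0.24 to an upper 5% point of 0.25. The genes that were higher in Col-0 were also high in this untreated tpst library.

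Col-0 replicate 3 deviated in a set of genes that partly overlapped, with bHLH39, S8H and F6'H1 beyond the 5% points in both libraries. It was higher than the other Col-0 libraries by 0.98 for bHLH38, 0.64 for FRO3 and 0.51 for bHLH39, on the log2 scale. OPT3 (0.18), FIT (0.15), IRT1 (-0.22) and FRO2 (0.02) lay within the range of -0.46 to 0.34 that bounds the lower and upper 5% points of 14818 genes in that library. S8H (-0.71) and F6'H1 (-0.46) were lower in it. Of 17 other regulators tested, 5 lay above that range in Col-0 replicate 3, namely bHLH100 (1.41), bHLH101 (1.11), IMA2 (0.71), PYE (0.68) and BTS (0.50), and 12 lay within it, among them IMA1 (0.22) and IMA3 (-0.22). Of 4 ferritins, which store iron, FER1 (-0.61) lay below the range, and FER2 (-0.18), FER3 (-0.41) and FER4 (-0.34) lay within it. In tpst replicate 1, 1 of the 17 regulators, bHLH100 (0.43), lay above that library's own range and 1 ferritin, FER2 (-0.28), lay below it. At 1 µM PSK, replicate 1 was low for FRO2 (-0.90), CYP82C4 (-1.06) and S8H (-0.93).

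**Figure D3:**
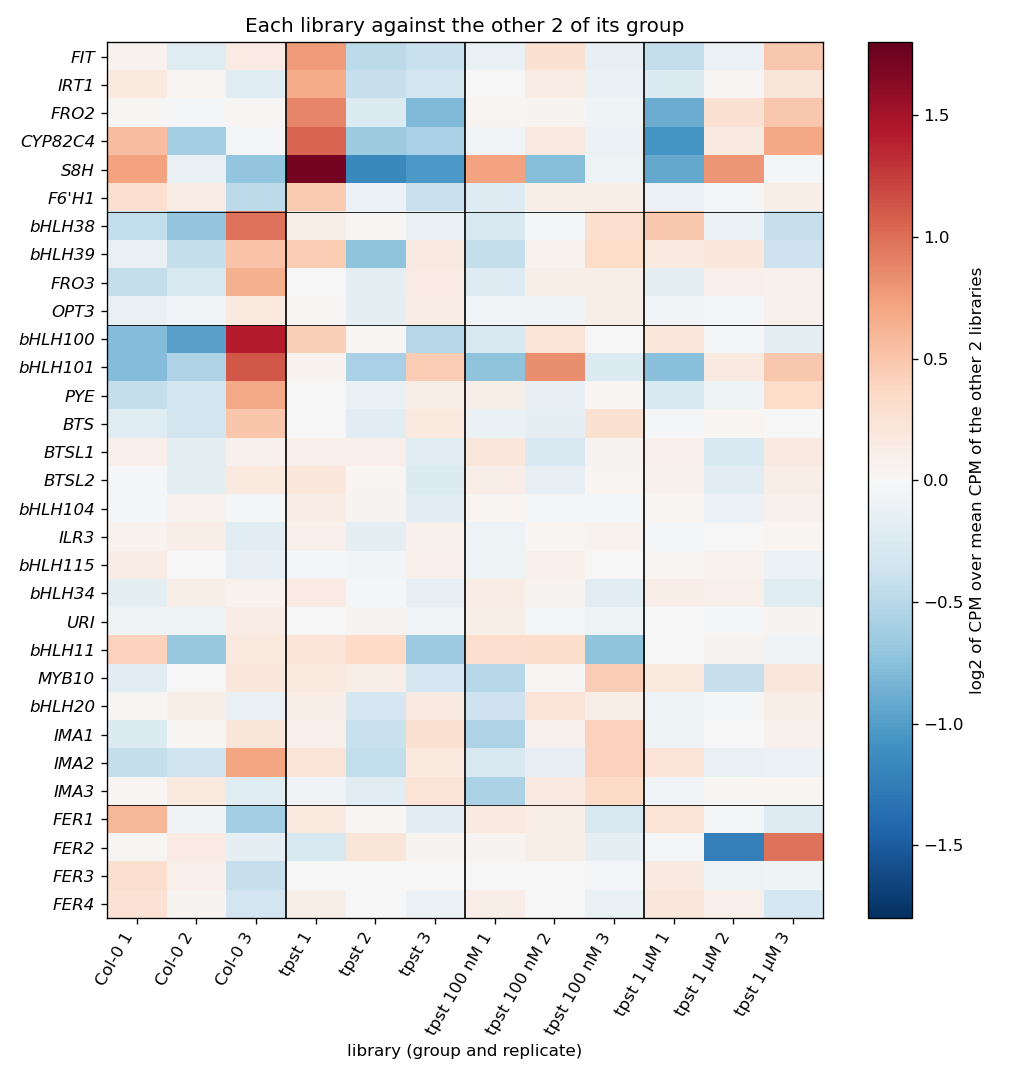
Deviation of each library from the other 2 of its group, as log2 of its CPM over their mean CPM, for the 10 iron genes, the 17 other regulators tested and the 4 ferritins; red is higher, blue lower, and black vertical lines part the groups. The upper 6 rows are red in tpst replicate 1 (S8H 1.72). In Col-0 replicate 3 bHLH38, bHLH39, FRO3 and 5 of the regulators (bHLH100 1.41) are the deepest red, the other regulators are pale and FER1 (-0.61) is the deepest blue of the ferritins.

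Other genes of the iron pathway were then counted. A list of 64 other iron genes held 54 that could be tested, and in Col-0 against untreated tpst 20 of them were higher, 11 were lower and 23 were not called, beside the 14.6% higher and 13.3% lower among all genes tested, with a median log2 change of 0.06. Beside FRO2 and FRO3, the list of 6 further FRO reductases had 5 tested and 3 higher. FRO5 was higher in Col-0 by 2.65 (SE 0.183, edgeR adjusted p = 2.12e-11), FRO4 by 2.51 (SE 0.250, edgeR adjusted p = 8.21e-08) and FRO6 by 1.04 (SE 0.157, edgeR adjusted p = 5.74e-05), all on the log2 scale. FRO7 (log2 -0.15) and FRO8 (log2 -0.27) were not called, and FRO1 had too few counts to be tested. FRO4 and FRO5 are 92.1% identical with a longest shared run of 92 bases, shorter than a read. FRO6 and FRO7 share a run of 205 bases, longer than a read, so the split of counts between them is uncertain.

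Among 10 other genes of uptake and coumarin metabolism, 6 of 9 tested were higher in Col-0 and none was lower. Of all genes tested, 14.6% were higher and 13.3% lower. PDR9, which exports coumarins from the root, was higher in Col-0 by 1.61 (SE 0.142, edgeR adjusted p = 9.83e-06) on the log2 scale. IRT2, the close relative of IRT1, was higher by 1.20 (SE 0.232, edgeR adjusted p = 0.000241), from 1.99 ± 0.110 CPM in tpst to 4.60 ± 0.313 CPM in Col-0 (SD, n = 3). F6'H2, the relative of F6'H1, was higher by 1.71 (SE 0.565, edgeR adjusted p = 0.0241) at a level of 0.968 ± 0.449 CPM in Col-0. The others called higher, named after their values were seen, were AHA7 (log2 0.54), COSY (log2 0.47) and AHA2 (log2 0.27). CYP82C2 was not called (log2 0.83, edgeR adjusted p = 0.298), and CYP82C3 had too few counts to be tested.

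Of 21 other regulators, 17 were tested, and 5 were higher and 4 lower in Col-0 (14.6% and 13.3% of all genes tested). Their median log2 change was -0.03. BTSL1 (log2 1.45, SE 0.0890, edgeR adjusted p = 2.52e-12) and BTSL2 (log2 1.05, SE 0.103, edgeR adjusted p = 1.38e-08), ubiquitin ligases that restrain the uptake response in the root, were higher. MYB10, a transcription factor needed when iron is short, was higher too (log2 1.09, SE 0.205, edgeR adjusted p = 0.000180). The others called higher, named after their values were seen, were bHLH20 (log2 0.45) and bHLH115 (log2 0.17). IMA3, 1 of the peptides that signal iron deficiency, was lower in Col-0 with a log2 change of -1.06 (SE 0.126, edgeR adjusted p = 1.36e-06), with 12.9, 13.7 and 11.4 CPM against 25.7, 24.1 and 29.5 CPM in untreated tpst. The other regulators called lower, named after their values were seen, were IMA1 (log2 -0.99) and IMA2 (log2 -0.77), peptides of the same family, and bHLH34 (log2 -0.39). bHLH100 (log2 -0.63, SE 0.364, edgeR adjusted p = 0.255) and bHLH101 (log2 0.02, SE 0.342, edgeR adjusted p = 0.975), the other partners of FIT in the subgroup of bHLH38 and bHLH39, were not called. bHLH101 overlaps the far more abundant AT5G04140 on the other strand by 79 bases. MYB10 likewise shares 340 bases with the far more abundant AT3G12810 on the other strand. BTSL1 shares 471 bases with AT1G74750 and BTSL2 139 with AT1G18900, also on the other strand.

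The list of 23 distribution genes had 19 tested, 5 higher and 7 lower in Col-0 (14.6% and 13.3% of all genes tested). Their median log2 change was -0.14. VTL5, a vacuolar iron transporter-like gene, was higher by 3.35 (SE 0.361, edgeR adjusted p = 1.40e-07) on the log2 scale and MTP3, a vacuolar zinc transporter of the root, by 2.13 (SE 0.176, edgeR adjusted p = 1.79e-09). IREG2, which moves metals into root vacuoles, was higher by 1.63 (SE 0.361, edgeR adjusted p = 0.00260) and NAS2, a nicotianamine synthase, by 1.15 (SE 0.228, edgeR adjusted p = 0.00140). COPT2, a copper transporter named after its value was seen, was also called higher (log2 0.79). The 7 lower ones, named after their values were seen, changed by less than 2-fold. They were NAS4 (log2 -0.77), another nicotianamine synthase, YSL2 (log2 -0.65) and YSL3 (log2 -0.35), transporters of metals bound to nicotianamine, NRAMP4 (log2 -0.62) and NRAMP3 (log2 -0.41), which release iron from vacuoles, ZIF1 (log2 -0.54) and MTP8 (log2 -0.52), transporters of the vacuole membrane. MTP8 was close to the threshold (edgeR adjusted p = 0.0489), and its Col-0 libraries overlapped those of untreated tpst. Of 4 ferritins, 1 was called, FER1, with a log2 change of 0.67 toward Col-0 (SE 0.195, edgeR adjusted p = 0.0340). Root and root epidermis markers were higher in Col-0 by a median log2 of 1.43 and 0.89, shoot markers had a median of -0.32, and their part in these list values was not tested.

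**Figure D4:**
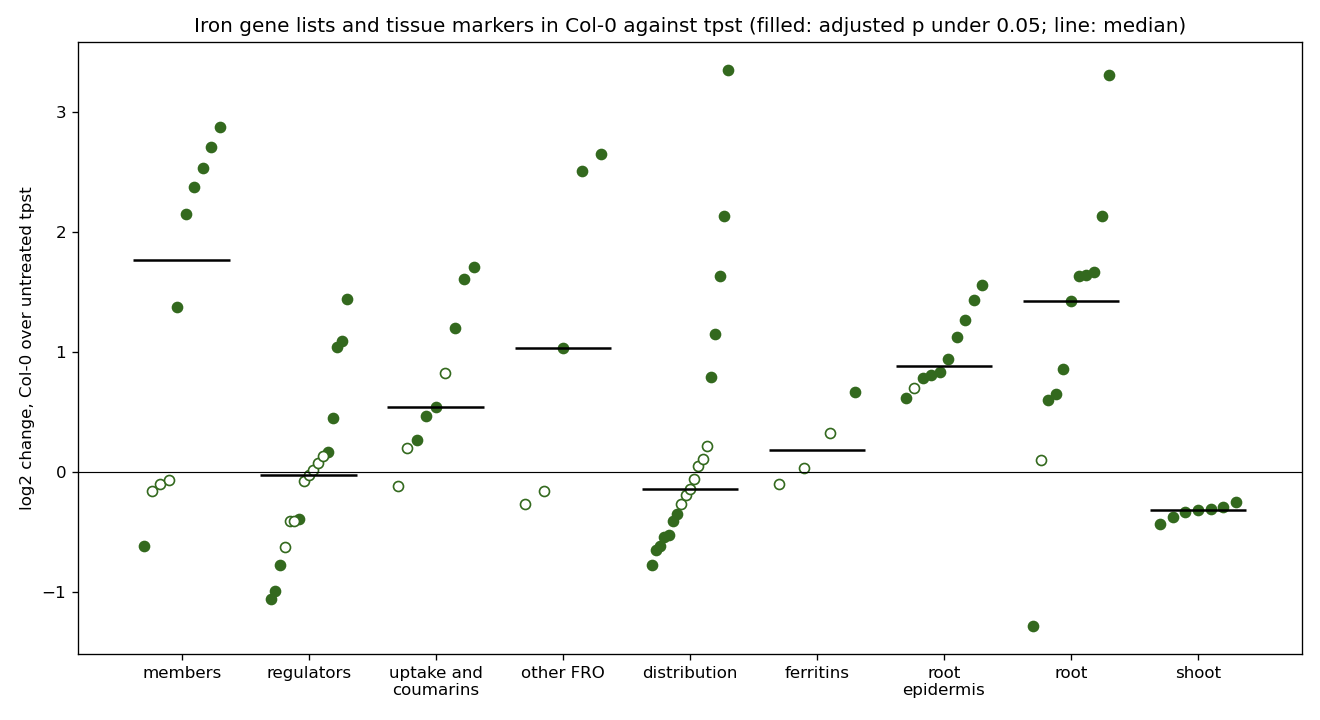
Change in Col-0 over untreated tpst on the log2 axis for every tested gene of the 10 iron genes, 5 lists of other iron genes and 3 lists of tissue markers; filled points are called at an adjusted p under 0.05 and horizontal lines are list medians. The iron genes have a median of 1.76, regulators -0.03 and distribution genes -0.14, root markers 1.43 and shoot markers -0.32.

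With 100 nM PSK, edgeR called 3 of the 54 other iron genes, 0 higher and 3 lower, where 3.20% of all genes tested were called. At 1 µM it called 5 of 54, 2 higher and 3 lower, where 6.45% of all genes tested were called. These were named after their values were seen. AHA2, the proton pump that acidifies the surroundings of the root, was lower at 100 nM (log2 -0.34, SE 0.0460, edgeR adjusted p = 2.09e-05) and at 1 µM (log2 -0.43, SE 0.0461, edgeR adjusted p = 4.03e-07). Between genotypes, AHA2 was higher in Col-0 than in untreated tpst (log2 0.27, edgeR adjusted p = 5.69e-05). YSL3, a transporter of iron bound to nicotianamine, had log2 changes of -0.53 and -0.52, and NRAMP1, a manganese and iron transporter, of -0.37 and -0.26, at 100 nM and 1 µM. NRAMP4 (log2 0.25) and URI (log2 0.27) were higher at 1 µM. None of the close relatives of the 10 genes that were tested (other FRO reductases, bHLH100, bHLH101, IRT2, F6'H2 and CYP82C2) was among those called. Of the relatives with few counts, CYP82C2 had summed counts of 25 in untreated tpst, 10 at 100 nM and 4 at 1 µM PSK. F6'H2 had 19, 21 and 22 in the same order. Both comparisons share the untreated tpst libraries.

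Over the 12 libraries, the genes whose log2 CPM was most like that of a member by Pearson's r were then listed. The closest to FIT were IRT1 (r = 0.989), GLP4 (r = 0.988) and RALF1 (r = 0.987), and the closest to IRT1 were MTPA2, which is MTP3 (r = 0.992), EXPA15 (r = 0.989) and FIT (r = 0.989). OPT3 was most like METK4 (r = 0.984), FMOGS-OX3 (r = 0.979) and AT1G73600 (r = 0.978). In these 3 cases the points fall into a Col-0 set and a tpst set, and the r values include that difference between genotypes. bHLH39 was most like JMJ19 (r = 0.921), GSTU27 (r = 0.892) and DREB2E (r = 0.870), and its own groups overlapped.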

How the data were processed

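The authors selected poly(A) RNA, read 150-base pairs, trimmed them with fastp, aligned them to TAIR10 with HISAT2 2.0.5 and assigned fragments to genes with featureCounts 1.5.0-p3. The deposited table holds the integer counts that the authors made per gene and the FPKM that the authors computed from them, which were used only to compare levels between genes. How strand and fragments with several matches were treated is not given in the sources used here. The extract protocol in the labels mentions separated shoot and root tissue, whereas the sample labels and the study's methods say whole seedlings.

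The counts went into edgeR 4.0.16 under R 4.3.3: filterByExpr kept 20506 genes with 99.96% of all counts, TMM factors ran from 0.974 to 1.075, and 1 robust quasi-likelihood model with a term per group was fitted to the 12 libraries (8 residual degrees of freedom). All tests were two-sided. SE is the standard error of the fitted log2 change. With 3 libraries a group, exact permutation p-values start at 0.1, and the p-values given are those of the model across genes. The alternatives were RLE scaling, DESeq2 1.42.0, no filter on low counts, only the 2 groups compared, a replicate block, a 2-fold threshold and leaving out each library. Library totals without TMM and leaving out both libraries that stood apart were added after seeing the data. The scripts were tested on simulated data.

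The 10 genes, the lists of other iron genes and the marker lists were chosen with earlier results of these data known. Named in the text are the 10 genes and other listed iron genes called with at least a 2-fold change against untreated tpst. Close relatives of the 10 genes (the other FRO reductases, bHLH100, bHLH101, IRT2, F6'H2, CYP82C2 and CYP82C3) are named whatever their values. For FIT, IRT1, bHLH39 and OPT3 the 3 genes of highest Pearson's r are named. Other listed genes, among them those of smaller changes, those of single libraries, the markers and those with too few counts, were named after their values were seen. Promoter windows, transcripts and their identities came from RefSeq TAIR10.1 (Python 3.11.15, Biopython 1.88). Protein sequences were not used here.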

Additional observations from a re-analysis of the deposited data

How the results depend on the processing

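The 6 genes called higher and OPT3 called lower in Col-0 than in each tpst group stayed so under every setting run with the threshold of adjusted p alone. With a 2-fold threshold OPT3 was not counted, and the genes called fell to 1318 of 5731 (Col-0 against tpst), 1463 of 6100 (against 100 nM PSK), 1609 of 7135 (against 1 µM PSK), 152 of 656 (100 nM PSK against tpst), 248 of 1323 (1 µM PSK against tpst) and 13 of 49 (between doses). Of the 10 genes, 1 was called at 100 nM PSK (F6'H1) with DESeq2, with only the 2 groups in the fit and with Col-0 replicate 3 and tpst replicate 1 both left out. At 1 µM PSK 1 was called (F6'H1) with DESeq2, with only the 2 groups, with library totals and with the replicate block, and 2 with both libraries left out. Between the doses, genes called rose from 49 to 148 with DESeq2, 97 with no filter, 467 with only the 2 groups and 541 with both libraries left out, and at 1 µM against tpst 2115 were called with only the 2 groups. Leaving out 1 library at a time gave 407 to 1033 genes and 0 to 1 of the 10 at 100 nM, 778 to 2174 genes and 0 to 1 of the 10 at 1 µM, and 17 to 535 genes between doses. The highest count of genes in each case was without Col-0 replicate 3. Without it FRO3 turned from a log2 of 0.05 to -0.20 in Col-0 against 100 nM PSK (edgeR adjusted p = 0.0426), and over the single libraries left out this value ran from -0.20 to 0.18. Library totals without TMM moved the median of all genes by 0.0994 to 0.112 on the log2 scale in the comparisons with Col-0, and gave 4828 genes higher and 1838 lower against 100 nM PSK (3204 and 2896 with TMM) and 5825 and 2182 against 1 µM PSK (3665 and 3470).

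Log2 CPM values less their group mean correlated by -0.0805 to 0.0598 between same-numbered libraries of different groups. Replicate 1 of each other group was most like tpst replicate 1, at r of 0.0291 to 0.0598. With 3 libraries a group, such values cannot settle whether same-numbered libraries were handled together. The replicate block gave 5777 genes for Col-0 against tpst, 728 at 100 nM, 1365 at 1 µM and 95 between doses. Depth limits S8H in tpst, which was at 1.23 to 4.17 CPM. Replicates are separate pools of seedlings of 1 mutant line, so a difference of the line cannot be told apart from that of the enzyme.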

Other observations

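Several iron genes had too few counts to be tested, and 2 of them are given here as counts, picked after their values were seen. VTL1, a vacuolar iron transporter-like gene, had 30, 26 and 7 counts in Col-0 and 1, 4 and 7 counts in untreated tpst. It had 4, 5 and 2 counts at 100 nM PSK and 5, 5 and 3 at 1 µM PSK. MYB72, a transcription factor needed for coumarin release, had 22, 10 and 7 counts in Col-0 and 13, 1 and 6 counts in untreated tpst. With PSK it had 4, 3 and 7 counts at 100 nM and 1, 0 and 0 counts at 1 µM. VTL3 had 0 counts in all 12 libraries. In VTL1 the library nearest to tpst was Col-0 replicate 3, and in MYB72 the highest tpst library was tpst replicate 1.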
